A study of Mus musculus with 17 samples.

Results

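Layer 6 corticothalamic nuclei were picked out of single-nucleus libraries of mouse neocortex by the genes detected in each nucleus. A barcode was kept when it held 600 to 5000 genes and under 5% of its UMIs (unique molecular identifiers, the counted RNA molecules) came from the mitochondrial genome. A kept nucleus was a member when at least 3 of Foxp2, Hs3st4, Zfpm2, Rprm, Syt6, Garnl3 and Tle4 had a UMI and at least 1 of those was Foxp2, Rprm or Syt6. It also had to hold no UMI of Gad1 or Gad2, none of Ndst4, Deptor or Rgs9, and at most 1 UMI of Rorb. This rule gave 1845 of 31486 kept nuclei, 5.86%.

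The nuclei came from the neocortex of 8 male C57BL/6 mice (C57Bl/6J in the study's methods) at postnatal day 80, 4 of them control mice and 4 subjected to chronic unpredictable stress (CUS), in which changing stressors were given on 12 consecutive days. Controls met no stressor, had daily handling, and did not share a room with stressed mice. For the nuclei, tissue was taken 24 h after the last stressor and nuclei were profiled by sNucDrop-seq, a droplet method in which each nucleus is captured with a barcoded bead. Bulk nuclear RNA-seq of the medial prefrontal cortex (mPFC) from other mice of this strain at postnatal day 90, 4 control and 5 CUS, was read as a measurement in separate animals. The replicates are mice. Room and stress cannot be told apart, and the labels do not say whether the mice came from separate litters or cages.

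Corticothalamic neurons are excitatory cells of layer 6 that send their axons to the thalamus and a branch to the layers above. Their feedback sets the gain and timing of thalamic relay cells, partly through inhibitory neurons of the thalamic reticular nucleus. In the mouse they are known by the transcription factors Foxp2, Tbr1, Sox5, Tle4 and Zfpm2, by the sulfotransferase Hs3st4, which modifies heparan sulfate chains, and by the neurotensin receptor Ntsr1.

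Control mice gave 192, 263, 311 and 134 member nuclei, and CUS mice 230, 180, 220 and 315. Their summed UMIs ran from 370875 to 932171 per mouse, and levels below are in CPM, a gene's UMIs divided by the summed UMIs of the mouse and scaled to the usual fixed total. Of the kept barcodes 27 occurred in more than 1 library, none of them a member. A doublet score above 0.2 was found for 6.67% to 13.5% of the members of a mouse and for 12.4% to 18% of all kept nuclei. The summed counts of member nuclei varied between mice of a group beyond sampling noise (chi-square divided by its degrees of freedom, 1.78 to 4.20 for each pair).

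Genes that the rule did not use followed the name of the class. Cdh18, a cadherin, stood at 1609 ± 266 CPM (SD over 8 mice) in the member nuclei against 430 CPM in the other excitatory nuclei, which are nuclei with a UMI of the vesicular glutamate transporter Slc17a7, none of Gad1 or Gad2, and outside the rule. Nfia, a nuclear factor, stood at 302 ± 31.8 CPM against 102 CPM, and Thsd7b at 348 ± 63.4 CPM against 87.7 CPM. Of the 11 corticothalamic genes outside the rule, 9 were higher in the member nuclei in all 8 mice. Tbr1 and Ntsr1 were the exceptions, higher in 7 of 8 mice. Tbr1 had 58.6 CPM against 38.5 CPM, and Ntsr1 was scarce at 12.7 CPM against 8.15 CPM. These are descriptions without a test, since the same nuclei were chosen by their UMIs, and the other excitatory nuclei were held to a Slc17a7 UMI that the member nuclei were not.

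**Figure D1:**
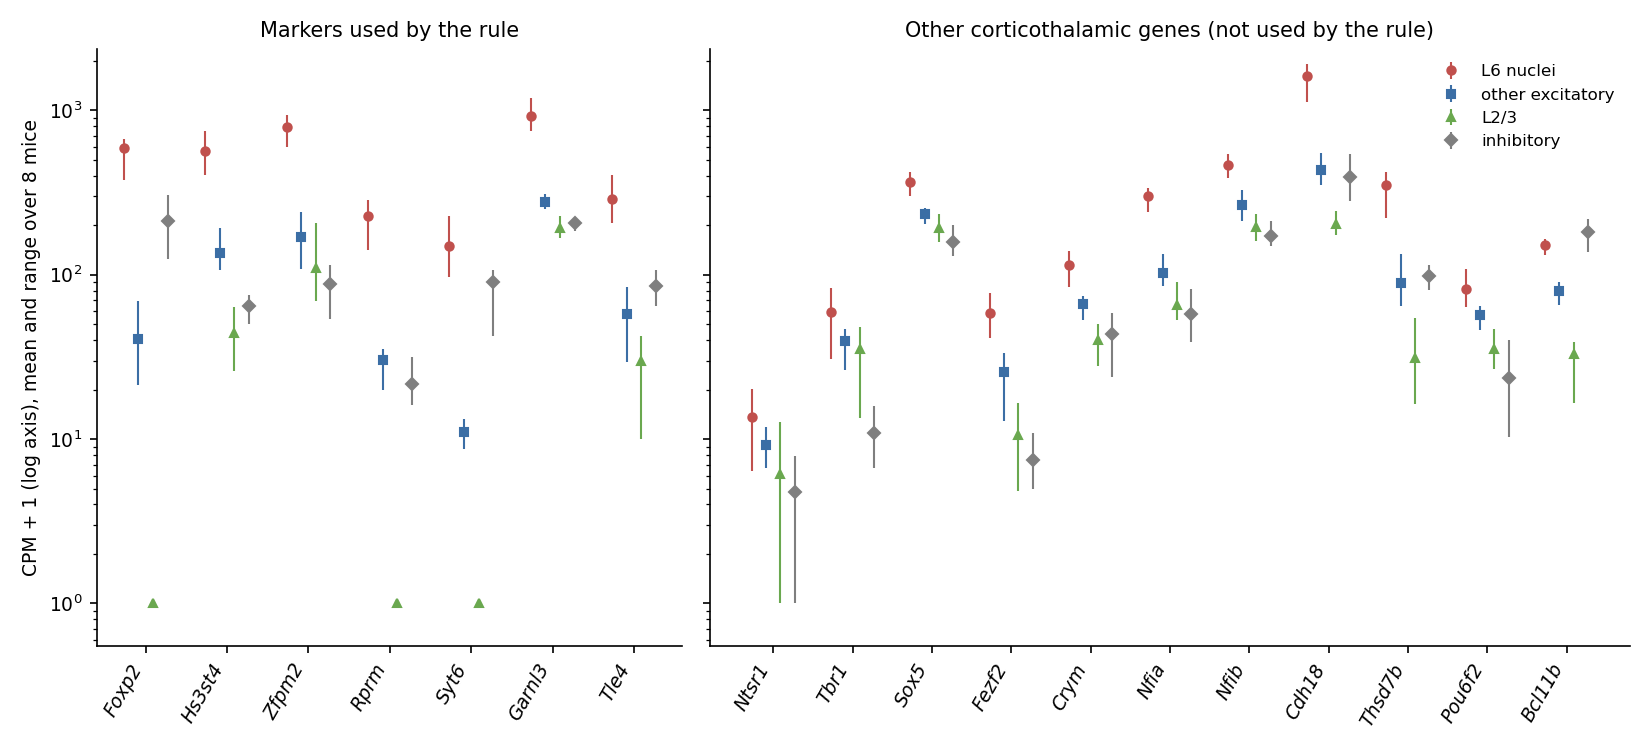
Mean CPM + 1 on a log axis, with the range over 8 mice as bars, for the 7 markers of the rule (left) and 11 other corticothalamic genes (right) in 4 classes of nuclei. Of the 11 genes on the right, Cdh18, Nfia and Thsd7b lay furthest above the other excitatory nuclei. L2/3 nuclei have no Foxp2, Rprm or Syt6 by definition.

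The markers used by the rule stood at 586 CPM for Foxp2, 788 CPM for Zfpm2, 563 CPM for Hs3st4, 919 CPM for Garnl3, 286 CPM for Tle4, 226 CPM for Rprm and 148 CPM for Syt6. In other excitatory nuclei the same genes had 39.6, 169, 135, 276, 56.6, 29.2 and 10.0 CPM. Foxp2 was not limited to the member nuclei, as inhibitory nuclei (2 or more Gad1 and Gad2 UMIs and no Slc17a7) held 212 CPM.

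Among tested genes outside the rule with a mean of 50 CPM or more, 15 were chosen by their lowest ratio over the 8 mice to the other excitatory nuclei. Arhgap25, a GTPase-activating protein, led with 50.6 CPM against 8.97 CPM, at least 3.95 times as much in every mouse. Rai14, an actin-associated protein, had 112 CPM against 25.6 CPM, and Col5a1, a fibrillar collagen chain, 66.9 CPM against 11.3 CPM. Cdh18, Thsd7b, Rell1, Trbc2, Ptk7, Ighm, Glra2, Nfia, Sdk2, Pitpnc1, Dlc1 and Pcp4 made up the rest, with lowest ratios from 3.21 down to 2.33. Trbc2 and Ighm carry the names of a T cell receptor and an immunoglobulin constant region. They had 84.2 CPM and 68.7 CPM, while the microglial genes Cx3cr1, P2ry12, Csf1r and C1qa summed to 23.7 CPM in member nuclei and 21.2 CPM in other excitatory nuclei.

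Marker lists of layers 2 to 5 and of the claustrum were lower in sum, and that of layer 6b was higher. The summed L2/3 markers Cux2, Rasgrf2, Enpp2, Calb1, Otof and Lamp5 stood at 254 CPM in member nuclei against 608 CPM in the other excitatory nuclei, and the summed L4 markers Rorb, Rspo1 and Scnn1a at 29.7 CPM against 253 CPM, where the limit on Rorb is part of the rule. The claustrum and layer 6 intratelencephalic list, with Synpr, Gnb4 and Nr4a2 among its 6 genes, summed to 115 CPM against 226 CPM. Ctgf, a marker of the subplate-derived layer 6b, was higher in the member nuclei at 29.6 CPM against 11.7 CPM, and 91 of 1845 member nuclei (4.93%) held a Ctgf UMI, against 0.937% of inhibitory nuclei at a close median depth (2363 and 2284.5 UMIs). The other layer 6b markers were scarce but also higher on average, with Cplx3 at 10.1 against 5.42 CPM, Moxd1 at 6.47 against 3.17 CPM and Nxph4 at 2.25 against 0.929 CPM. The L5 markers Etv1, Parm1 and Bcl6 summed to 99.3 against 135 CPM, with Parm1 level at 44.1 and 44.2 CPM. The L5/6 markers Deptor, Il1rapl2 and Tshz2 summed to 219 against 427 CPM, with Deptor at 0 by the rule against 34.3 CPM, Il1rapl2 at 130 against 312 CPM and Tshz2 at 89.7 against 80.8 CPM.

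Markers of other cell types were also read. The striatal markers summed to 464 CPM in member nuclei (339 to 747 CPM per mouse) and 510 CPM in other excitatory nuclei, most of it Pde10a at 384 and 385 CPM, with Drd1 at 11.6 CPM, Drd2 at 1.74 CPM and Rgs9 at 0 by the rule in member nuclei. Inhibitory markers summed to 129 CPM in member nuclei and 105 CPM in other excitatory nuclei, and their defining genes Gad1 and Gad2 are at 0 by the rule. Oligodendrocyte markers summed to 372 CPM against 380 CPM, and endothelial markers to 2.95 CPM with Cldn5 at 0. Of the 6 astrocyte markers only Slc1a2, a glutamate transporter, was high, at 892 CPM against 496 CPM in other excitatory nuclei. Gfap, Aqp4, Gja1 and Aldh1l1 had 0.418, 4.80, 6.19 and 6.30 CPM in the same nuclei.

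Member nuclei differed in how many of the 7 markers they showed. There were 568 nuclei (30.8%) with 3 markers, 566 with 4, 445 with 5, 207 with 6 and 59 (3.20%) with all 7. Their median depth climbed from 1960 UMIs at 3 markers to 3602 UMIs at 7, so the number of markers moves with the depth of a nucleus. Just outside the rule lay 608 nuclei that met every other condition with 2 markers, at a median of 1773.5 UMIs. Cdh18 stood at 531 CPM in these, at 1120 CPM in member nuclei with 3 markers, at 1567 and 1978 CPM with 4 and 5, and lower again at 1843 and 1475 CPM with 6 and 7. Thsd7b, in the same order, had 109, 216, 350, 430, 445 and 321 CPM.

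Foxp2 was detected in 75.8% of member nuclei, Garnl3 in 83.0%, Zfpm2 in 75.1%, Hs3st4 in 69.4%, Tle4 in 49.6%, Rprm in 42.1% and Syt6 in 30.4%. In inhibitory nuclei, a class that also holds striatal markers, the shares in the same order were 22%, 33.4%, 13.5%, 12.2%, 18%, 4.32% and 15.7%. Outside the rule, Cdh18 was detected in 85.0% of member and 40.3% of inhibitory nuclei, and Thsd7b in 45.3% and 14.7%. Of the 3 markers of which 1 was required, Foxp2 alone was seen in 694 nuclei, Rprm alone in 265, Syt6 alone in 140 and all 3 together in 143. Cdh18 stood at 1766 CPM with Foxp2 alone, at 1518 CPM with Syt6 alone and at 958 CPM with Rprm alone. Cux2, a marker of upper layers, had 42.9 CPM in the nuclei with Rprm alone against 16.6 CPM with Foxp2 alone and 11.3 CPM with Syt6 alone. Ctgf was found mostly with Foxp2 alone (60.1 CPM) or Syt6 alone (56.7 CPM) and had 17.2 CPM with Rprm alone. Slc17a7, which the rule does not require, was detected in 47.8% of member nuclei.

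CUS replicate 1 stood apart in the make-up of its member nuclei. Foxp2 was detected in 59.6% of them, while no control mouse was below 76.0%, and Syt6 in 44.3%, while no control mouse was above 32.1%. The summed CPM of the 11 corticothalamic genes outside the rule was 2773 in this mouse and 3316 to 4046 in the others. This low sum was not particular to member nuclei. CUS replicate 1 was also the lowest mouse in the other excitatory (1213 CPM), L2/3 (741 CPM) and inhibitory nuclei (939 CPM). Ptgds, which makes prostaglandin D2 and is abundant in leptomeninges and choroid plexus, was at 271 CPM in it and at 22.4 to 78.7 CPM in the other 7. Without this mouse the log2 fold change of Ptgds fell from 1.08 to 0.23. CUS replicate 2 stood apart in other lists. Its striatal markers summed to 747 CPM, against 339 to 521 CPM in the other mice. This mouse was also the highest for them in the other excitatory (713 CPM), L2/3 (741 CPM) and inhibitory nuclei (2428 CPM). Its pan-excitatory markers summed to 1364 CPM, against 1459 to 2215 CPM.

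The share of these nuclei with CUS lay within the spread of the mice. They made up 5.57%, 5.45%, 6.27% and 5.91% of the kept nuclei in control mice and 5.67%, 5.22%, 6.10% and 6.46% in CUS mice. The groups overlapped, at 5.80% ± 0.370 (SD, n = 4) and 5.86% ± 0.539 (SD, n = 4), and the difference of 0.0634 percentage points had p = 0.857 by an exact two-sided permutation test, which cannot go below 0.0286 with 4 mice against 4. As a share of excitatory nuclei (member nuclei plus the other excitatory nuclei) they came to 20.3%, 24.1%, 20.8% and 20.8% in control mice and 18.3%, 22.6%, 18.7% and 17.6% in CUS mice. The means were 21.5% ± 1.75 and 19.3% ± 2.25, with 3 of 4 CUS mice below every control mouse, and the exact permutation p was 0.171. The other excitatory nuclei needed a Slc17a7 UMI and the member nuclei did not, so this share can also move with the detection of Slc17a7. It was detected in 30% to 57.4% of the member nuclei of a mouse, and its part in the share was not tested. With nuclei of at least 1000 genes the differences were 0.310 points of kept nuclei and -2.28 points of excitatory nuclei, the latter with p = 0.0571 by the exact permutation test. With the rule applied to nuclei thinned to 1000 UMIs they were 0.456 and -1.35 points, with exact permutation p of 0.286 and 0.714. All these shares are of nuclei that met the whole rule. Its marker conditions alone were met by 333, 659, 766 and 267 nuclei of control mice and 412, 319, 387 and 588 of CUS mice. Of these, 86, 225, 286 and 73 in control mice and 108, 71, 77 and 106 in CUS mice held a Gad1 or Gad2 UMI. The share before the exclusions was not tested.

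**Figure D2:**
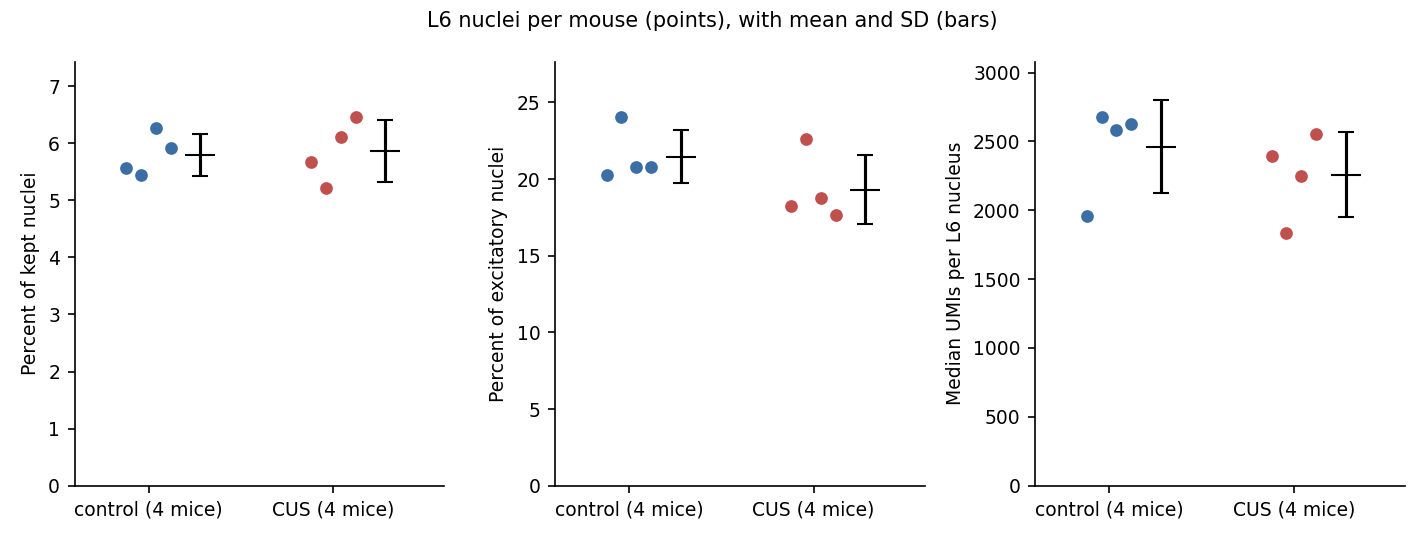
Percent of kept nuclei, percent of excitatory nuclei and median UMIs of the L6 nuclei in each mouse (points), with mean and SD of the 4 mice of a group beside them. The control and CUS mice overlap in all 3 panels.

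The median depth of member nuclei was 1959.5, 2679, 2585 and 2626.5 UMIs in control mice and 2396, 1838, 2252.5 and 2551 UMIs in CUS mice, with p = 0.4 by the exact permutation test.

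Gene by gene, no gene passed the threshold between CUS and control in the corticothalamic nuclei. UMIs were summed per mouse and 5232 genes were tested with edgeR's quasi-likelihood test at an FDR of 0.2, the study's threshold. The count was 0 (0% of the genes tested), with 394 genes (7.53%) at an unadjusted p under 0.05 and 0 calls by DESeq2. The smallest FDR was 0.401. With each mouse left out in turn, still with 0 calls, the smallest FDR ran from 0.203 to 0.755, and the genes at an unadjusted p under 0.05 from 244 without CUS replicate 1 to 651 without CUS replicate 2. The study used edgeR's likelihood ratio test with a batch term, on its own clusters of nuclei. Here the likelihood ratio test without that batch term called 10 genes. It called 93 when a term for a split of the mice by mt-Rnr1 (a mitochondrial rRNA) was added, an alternative chosen after the data were seen. Neither count is the outcome of the study's model, which did call genes in its own cluster of this layer. The CPM of control and CUS mice did not overlap for 198 genes (3.78%), 102 of them higher with CUS (1.95%) and 96 lower (1.83%). Counts were simulated from these libraries, with 200 genes changed by the same size and each gene drawn on its own. In such counts the test recovered 94.5% of changes of 1 on the log2 scale, 78.0% of changes of 0.7 and 37.5% of changes of 0.5. Other numbers of changed genes, and differences between mice shared by many genes, were not simulated. The recovery in these data can therefore differ, and 0 calls do not exclude large changes. Genes named below are therefore given with their values, and none of them passed the test in these nuclei.

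Mical2, an enzyme that oxidizes actin and acts on the transcriptional partners of Srf, had the smallest p. It stood at 144, 143, 156 and 155 CPM in control mice and at 277, 213, 200 and 254 CPM in CUS mice. Every CUS mouse lay above every control mouse, with a log2 fold change of 0.66 ± 0.14 (SE) and an FDR of 0.401 in edgeR's quasi-likelihood test. The likelihood ratio test gave it an FDR of 0.0597. Homer1, a scaffold of the postsynaptic density with an activity-induced short form, had 151, 237, 238 and 219 CPM in control and 283, 302, 340 and 340 CPM in CUS mice, a log2 fold change of 0.55 ± 0.15.

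Among genes higher with CUS whose groups did not overlap, those of next lowest p were Mast3, Nudcd3, Galnt9, Serinc2, Ptprn, BC005537, Lmtk3 and Kif17. Ptprn, a protein of dense-core vesicles, was the tightest of these within groups, at 182 ± 4.28 CPM in control and 253 ± 13.5 CPM in CUS mice (SD, n = 4 each). Kif17, a dendritic kinesin, had 35 ± 3.52 CPM and 61.3 ± 13.9 CPM. Log2 fold changes of the 8 genes ran from 0.47 for Ptprn to 0.86 for Serinc2. Serinc2 and Kif17 were scarce, with 194 and 234 UMIs in all member nuclei. Genes were tested only when their UMIs summed over both groups passed a filter. Scarce genes can pass it through the group where they are higher, and its part in these fold changes was not tested.

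Among genes lower with CUS whose groups did not overlap, Nkain3, which interacts with the sodium pump, had the smallest p. It had 66.3, 120, 76.3 and 89.8 CPM in control mice and 46.7, 45.8, 30.4 and 61.1 CPM in CUS mice, a log2 fold change of -0.93 ± 0.22. Kcnab1, an auxiliary subunit of voltage-gated potassium channels, had 75.7, 115, 113 and 122 CPM against 67.6, 72.8, 66.1 and 66.5 CPM. The CUS mice lay close together here and below all control mice. Lcorl, Prr16, Cntn6, Hdac9, Mlip, Golga5 and Kif2a were also among them. Cntn6, a contactin cell adhesion protein, stood at 180 ± 29.0 CPM and 120 ± 13 CPM, and Hdac9, a class IIa histone deacetylase, at 271 ± 55.0 CPM and 182 ± 23.3 CPM.

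**Figure D3:**
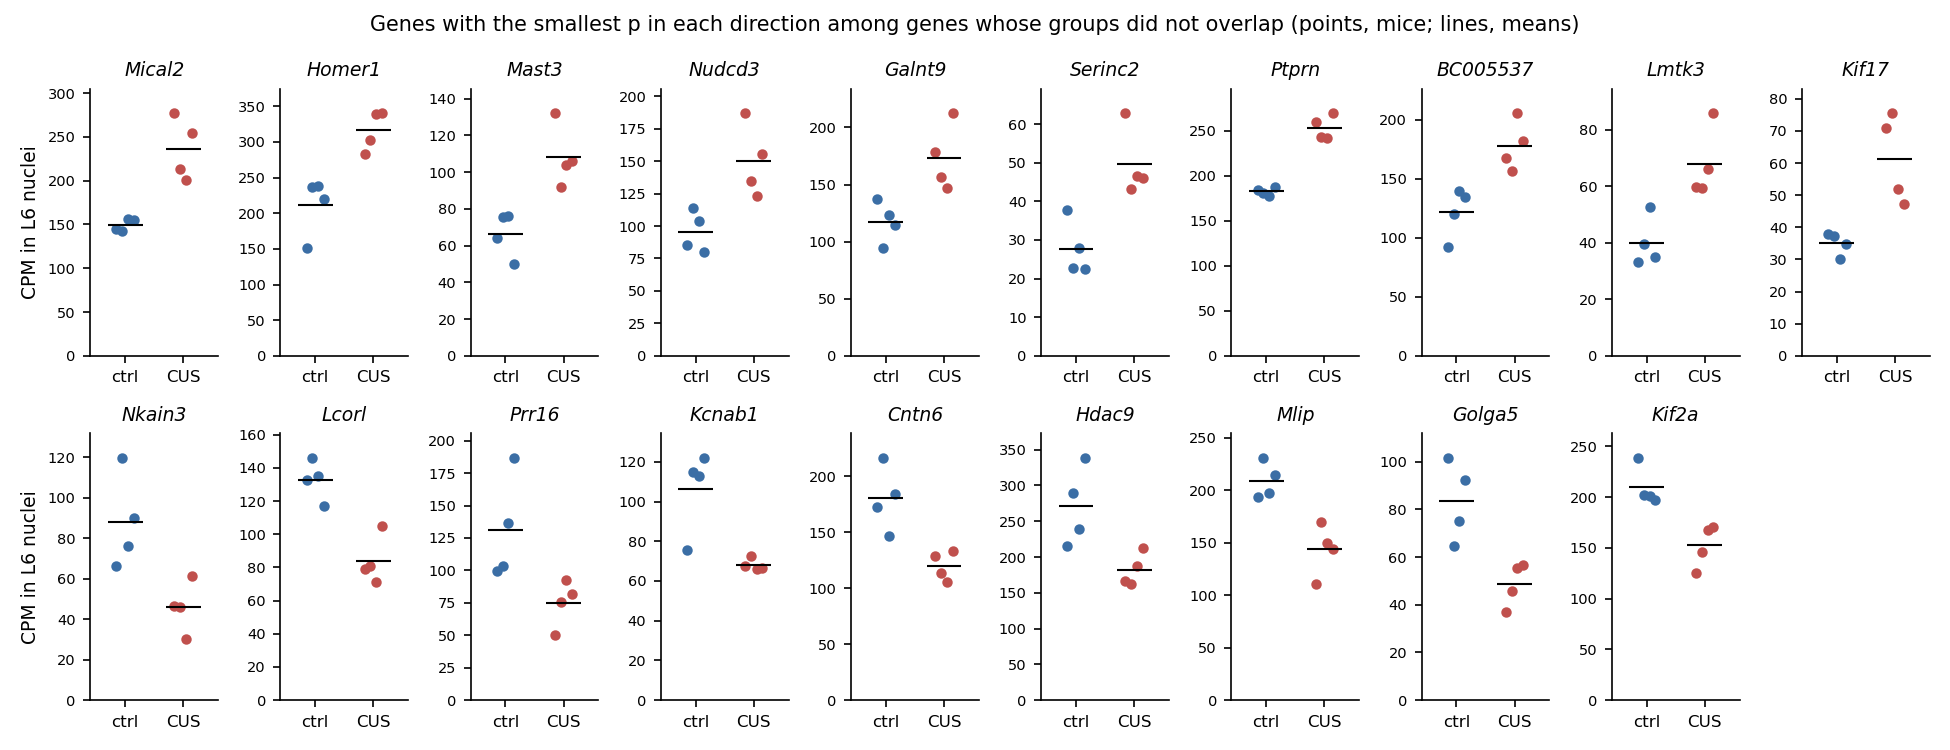
CPM in the L6 nuclei of each control (blue) and CUS (red) mouse, with group means as lines, for the genes without overlap between groups that had the lowest p, 10 higher and 9 lower with CUS. None of them passed an FDR of 0.2 in edgeR's quasi-likelihood test, the likelihood ratio test called 10 of them, and the separation of the groups is part of how they were chosen.

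The class markers themselves are given without a test, since a nucleus had to show them to be counted. Foxp2 had 620, 660, 561 and 581 CPM in control mice and 375, 671, 663 and 558 CPM in CUS mice, with CUS replicate 1 the lowest of all. Garnl3, a GTPase-activating domain protein, had 911, 750, 799 and 863 CPM against 992, 1184, 928 and 925 CPM, without overlap. Rprm, a p53-induced cell cycle protein, had 237, 165, 224 and 140 CPM against 271, 283, 236 and 253 CPM. Among the 10 tested corticothalamic genes outside the rule, 5 were higher and 5 lower, with a median log2 fold change of -0.02 and none without overlap.

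Gene lists are described by how many of their members lay on each side, beside a median of -0.0037 over all 5232 genes. Only members past the filter on UMIs summed over both groups were tested. A scarce gene can pass that filter through the group where it is higher. Of 34 activity-regulated genes 14 were tested, 10 of them higher, with a median of 0.26. Vgf, a secreted neuropeptide precursor, had 42.6, 37.2, 44.0 and 47.4 CPM in control and 70.8, 45.8, 76.9 and 76.2 CPM in CUS mice. Egr1, an immediate-early transcription factor, had 78.1, 133, 241 and 192 CPM in control mice and 251, 272, 240 and 239 CPM in CUS mice. The control mice were spread widely and the CUS mice were nearly level. Junb, an AP-1 subunit, had the other sign, at 51.1 ± 25.1 CPM in control and 27.5 ± 11.8 CPM in CUS mice. Fos was too scarce to be tested, with 4.73 to 34.4 CPM in control mice and 8.94 to 35.1 CPM in CUS mice.

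Genes of axon guidance and adhesion had 29 of 36 tested members lower, with a median of -0.17, 6 of them at an unadjusted p under 0.05, and 1 without overlap, beside 7.53% and 3.78% of all genes. Unc5c, a netrin receptor, had 223 ± 102 CPM in control and 134 ± 35.7 CPM in CUS mice, and Dcx, a microtubule protein of migrating neurons, 178 ± 40.4 CPM and 121 ± 13.9 CPM. Slit2, a repellent ligand of Robo receptors, had 80.8 ± 25.0 CPM and 57.9 ± 16.2 CPM. Control replicate 2 was the highest mouse for Unc5c, at 362 CPM, and for Slit2, at 110 CPM. Without it the log2 fold change of Unc5c moved from -0.76 to -0.41 and that of Slit2 from -0.50 to -0.30. Lsamp, a cell adhesion protein of the IgLON family, was the member without overlap, at 2666 to 3371 CPM against 2038 to 2615 CPM, and was named after its values were seen. Without CUS replicate 1 the list had 23 of 36 members lower and a median of -0.089.

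Of 72 ribosomal protein genes only 20 passed the filter and were tested, and 19 of these were higher, with a median of 0.21. The count of 19 therefore does not describe the list as a whole. Nuclear-encoded genes of the respiratory chain had 22 of 28 higher, with a median of 0.15. No member of either list was without overlap. Rpl37a, of the large ribosomal subunit, had 33.1, 22.8, 31.1 and 32.4 CPM in control mice and 77.3, 32.4, 64.4 and 40.8 CPM in CUS mice, and CUS replicate 1 was the highest. Without that mouse 13 of 18 ribosomal protein genes were higher with a median of 0.13, and 17 of 28 respiratory chain genes with a median of 0.063.

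All 5 tested metabotropic glutamate receptors were lower, with log2 fold changes from -0.32 to -0.26 and a median of -0.31, or -0.19 without CUS replicate 1. Grm5, a receptor coupled to Gq, had 852, 1269, 1019 and 1212 CPM in control and 762, 992, 883 and 887 CPM in CUS mice, so that the groups overlapped. Of 27 potassium and HCN channel genes 13 were higher and 14 lower, and the 5 without overlap were all lower, beside 1.83% of all genes without overlap and lower. These were Kcnab1, Kcnj3, Kcnc2, Kcnq5 and Kcnh7, the last 4 named after their values were seen. Kcnj3, a G protein-gated potassium channel subunit, had 367, 406, 364 and 389 CPM against 216, 351, 338 and 261 CPM, with CUS replicate 1 the lowest.

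**Figure D4:**
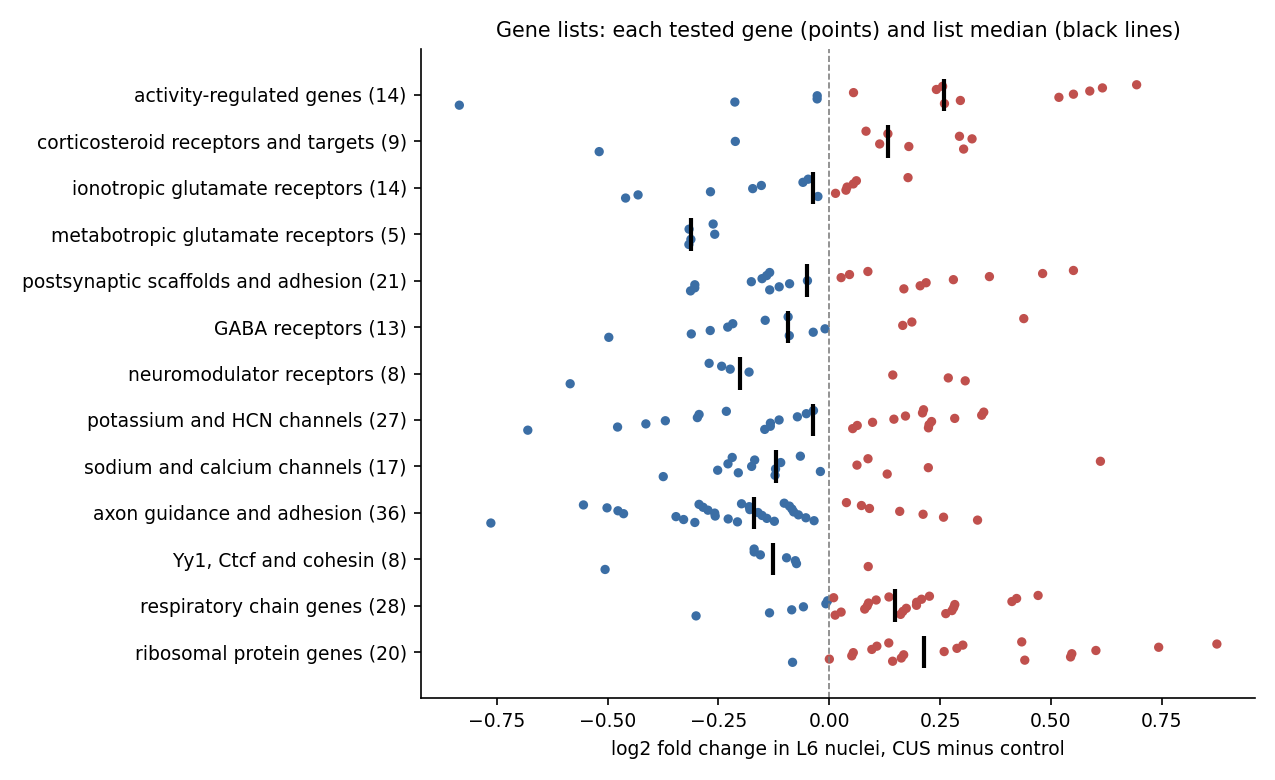
Log2 fold change (CUS minus control) in L6 nuclei of each tested gene in 13 lists, red when higher and blue when lower, with the median of the list as a black line and the number of tested genes in brackets. The medians of ribosomal protein genes (0.21) and activity-regulated genes (0.26) lie right of 0, and those of metabotropic glutamate receptors (-0.31) and axon guidance genes (-0.17) left of it.

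Of the remaining lists, 7 of 9 corticosteroid receptors and targets were higher with a median of 0.13, 10 of 13 GABA receptor genes lower with a median of -0.093, and 12 of 17 sodium and calcium channel genes lower with a median of -0.12. Neuromodulator receptors had 5 of 8 members lower, and postsynaptic scaffolds 11 of 21. The glucocorticoid receptor Nr3c1 stood at 223 ± 24.0 CPM in control and 195 ± 27.4 CPM in CUS mice, a log2 fold change of -0.21 ± 0.15, or -0.096 without CUS replicate 1. Of 8 tested genes of the Yy1, Ctcf and cohesin list 7 were lower. Yy1, a zinc finger factor that helps to loop enhancers to promoters, had 85.2, 53.9, 72.0 and 64.8 CPM in control and 46.7, 48.5, 34.0 and 60.1 CPM in CUS mice, a log2 fold change of -0.51 ± 0.22 with an FDR of 0.616 in edgeR's quasi-likelihood test. Ctcf had 133 ± 18.1 CPM and 126 ± 16.2 CPM.

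Markers of other cell types and layers had the following values in the 2 groups, and their part in the values above was not tested. The choroid plexus list (Ttr, Folr1, Kl and Clic6) summed to 0 to 6.44 CPM in the member nuclei of control mice and to 16.1 to 37.7 CPM in CUS mice, without overlap. Most of it was Ttr, which had only 47 UMIs in all member nuclei. It was also without overlap in the other excitatory nuclei, at 2.84 to 9.53 against 13.4 to 21.8 CPM, and in L2/3 nuclei, a part of these, at 2.22 to 6.14 against 12.9 to 36.6 CPM. In inhibitory nuclei the groups overlapped, at 20.3 to 33.6 against 24.9 to 371 CPM. The oligodendrocyte marker Mbp was at -0.32 ± 0.24, with control replicate 2 the highest, and the other tested marker of that list was at -0.45. Of the inhibitory markers, Sst was at -0.80 ± 0.42, with control replicate 4 at 147 CPM and the other mice at 16.1 to 40.3 CPM, and Adarb2 at -0.072 ± 0.26. Vip was too scarce for the filter and had 4.73 to 8.59 CPM in control mice and 8.05, 27.0, 7.15 and 45.1 CPM in CUS mice. The striatal marker Pde10a was at 0.39 ± 0.20. Pan-excitatory markers had 4 of 5 genes higher with CUS with a median of 0.23. The L5 markers Etv1 and Parm1, named after their values were seen, were lower by log2 fold changes of -0.73 ± 0.27 and -0.69 ± 0.26, with overlapping groups. Of the 2 tested L2/3 markers, 1 was higher at 0.245 with overlapping groups, and 1 was lower at -0.40 without overlap.

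Responses in 2 nearby classes of the same mice were set beside these values, and a response particular to layer 6 was not detected. L2/3 nuclei had at least 2 of Cux2, Rasgrf2, Enpp2 and Calb1 and no Foxp2, Rprm or Syt6. In the other excitatory nuclei (7355 nuclei) no gene passed, and in L2/3 nuclei (1606, also contained in the other excitatory nuclei) 9 genes did. The difference in the response to CUS between the corticothalamic nuclei and each of these classes was tested as an interaction, with the mouse as a block. The classes share their mice. It gave 0 calls of 5168 genes (0%) against the other excitatory nuclei and 0 of 5174 (0%) against L2/3 nuclei. At an unadjusted p under 0.05 there were 233 and 248 genes, and DESeq2 gave 0 calls in both. With the same settings, simulated log2 differences of 1 were recovered at 96.5% against the other excitatory nuclei and at 87.0% against L2/3 nuclei. Differences of 0.5 were recovered at 62.0% and 31.5%. Of the simulated calls against L2/3 nuclei 23.2% and 29.8% were false, above the nominal 20%.

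Mical2 had log2 fold changes of 0.66 ± 0.14, 0.65 ± 0.12 and 0.71 ± 0.14 in the corticothalamic, other excitatory and L2/3 nuclei. The difference from L2/3 nuclei was -0.034, with a 95% interval of -0.31 to 0.24. Vgf had 0.69 ± 0.21, 0.60 ± 0.13 and 0.76 ± 0.19, and Prr16 -0.80 ± 0.21, -0.70 ± 0.18 and -0.84 ± 0.19. Mical2, Vgf and Prr16 are among the 9 genes that an earlier fit to these mice called in both of its upper-layer classes. Mical2 and Prr16 were also chosen by a low p in the corticothalamic nuclei. Their closeness is therefore set in part by how they were chosen, and the list is no independent evidence. Of its 9 genes, 5 were higher and 4 lower in the corticothalamic nuclei. Nln, a peptidase of that list, had 0.0058 ± 0.18 here and -0.36 ± 0.11 in the other excitatory nuclei.

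Some genes stood further apart between the classes, still without passing the quasi-likelihood test of the difference. BC005537 had a log2 fold change of 0.53 ± 0.15 in the corticothalamic nuclei, -0.028 ± 0.098 in the other excitatory nuclei and -0.0050 ± 0.15 in L2/3 nuclei. Junb had -0.83 ± 0.31, 0.027 ± 0.26 and 0.40 ± 0.27, and its difference from L2/3 nuclei was -1.21 ± 0.29, with an FDR of 0.452 in edgeR's quasi-likelihood test. The likelihood ratio test called this difference for Junb (FDR 0.114), Tmtc1 (FDR 0.0848) and Nsun2 (FDR 0.114), and with 1 mouse left out the quasi-likelihood test called Olfm3 (FDR 0.0895) and Nsun2 (FDR 0.105) without control replicate 1, Tmtc1 (FDR 0.0489) without control replicate 3, and Olfm3 (FDR 0.0529), Junb (FDR 0.188) and Ptgds (FDR 0.188) without CUS replicate 2. Kif17 had 0.77 ± 0.23, 0.059 ± 0.14 and -0.13 ± 0.22. Rprm, Zfpm2, Hs3st4 and Garnl3 also ranked high, but the rule takes nuclei that show these genes out of the other classes, so their differences are not read.

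**Figure D5:**
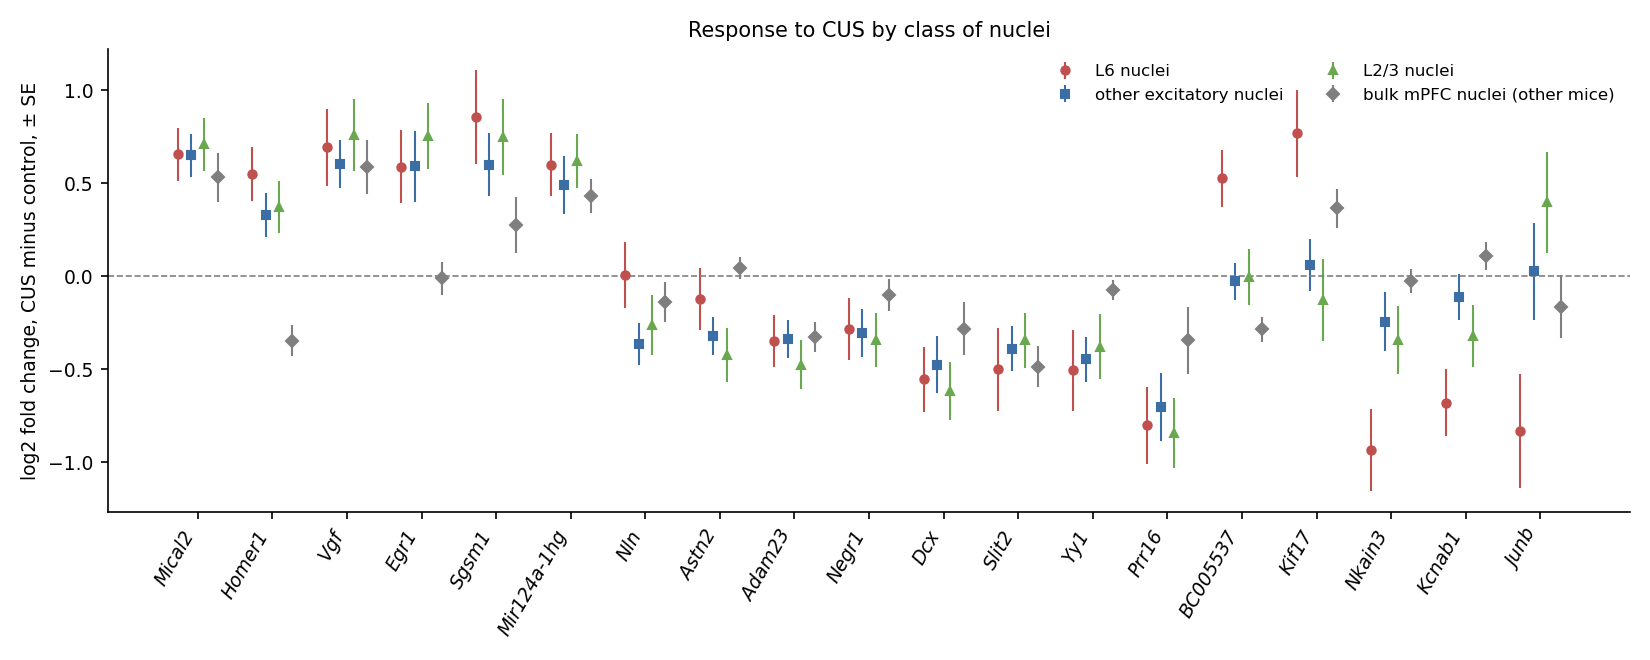
Log2 fold change (CUS minus control, ± SE) of 19 genes in L6 nuclei, other excitatory nuclei, L2/3 nuclei and bulk mPFC nuclei of other mice. Mical2, Vgf and Prr16 lie close together in the 3 classes of nuclei, and all of them come from a list called before in these mice. The last 5 genes, from BC005537 to Junb, were chosen after their values were seen.

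Bulk nuclear RNA of the mPFC came from other animals, which by the study's methods had first gone through behavioral tests and were taken 24 h after the last of them, where the protocol in the labels, the same for bulk and nuclei, gives 24 h after the last stressor. Behavioral testing, age and region differ between the bulk and nuclei mice along with the assay and cannot be told apart when their values are set side by side. In bulk, all cell types are mixed and fewer cells of a type cannot be told from less RNA per cell. Of 18394 genes tested 606 passed an FDR of 0.05 (3.29%). Of the 7 markers of the rule only Garnl3 passed, with a log2 fold change of 0.50 ± 0.084 and an FDR of 0.0119 in edgeR's quasi-likelihood test. Of 83 named genes 16 passed in bulk, and only these and Yy1 are given in this paragraph. Of the 13 that were also tested in the corticothalamic nuclei, 11 had the same sign there and 2 the opposite sign. Mical2 had 0.53 ± 0.13 in bulk (FDR 0.0476) beside 0.66 in the corticothalamic nuclei, Vgf 0.59 (FDR 0.0465) beside 0.69, and Mir124a-1hg 0.43 (FDR 0.0246) beside 0.60. Cntn6 had -0.53 (FDR 0.0295) beside -0.59, Htr2c -0.69 (FDR 0.0271) beside -0.58, and Slit2 -0.49 (FDR 0.0368) beside -0.50. The mineralocorticoid receptor Nr3c2 had -0.23 (FDR 0.0399) in bulk. In the corticothalamic nuclei it had 33.1, 139, 98.8 and 94.7 CPM in control and 37.0, 51.2, 76.9 and 95.5 CPM in CUS mice, with overlapping groups, and a log2 fold change of -0.52 ± 0.27 that ran from -0.80 without CUS replicate 4 to -0.23 without control replicate 2. Nfia passed in bulk at -0.30 and was near 0 in the corticothalamic nuclei at -0.049 ± 0.14. BC005537 passed with the opposite sign, at -0.29 (FDR 0.0387) beside 0.53. Genes that the study names were in part chosen on this bulk RNA, so that their passing there is not independent. Of these, Adam23 had -0.33 in bulk and -0.35 in the corticothalamic nuclei, Alcam -0.31 and -0.11, and Homer1 -0.35 and 0.55, while Fos (-1.05) and Crem (-0.33) were lower in bulk and too scarce to be tested in the corticothalamic nuclei. Ntsr1 (-0.65) was also lower in bulk and too scarce there. Yy1 was at -0.074 and did not pass, with an FDR of 0.442.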

How the data were processed

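Nuclear RNA of mouse neocortex was profiled by sNucDrop-seq in 8 mice, and bulk nuclear RNA of mPFC in 9. The authors mapped the nuclei to mm10 with STAR and deposited a table of UMI counts per gene, exonic and intronic, for 5000 barcodes of each mouse. For bulk RNA they deposited raw read counts per gene from uniquely mapped reads of rRNA-depleted stranded libraries, 26188825 to 30525015 reads per mouse over 36293 genes. Groups came from the sample labels. The authors ran the nuclei in batches that held mice of both groups, but the batch of a mouse is not given in the sources used here, so the batch term of the study's model was left out and no within-batch value was made.

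From these counts, nuclei were classed as described, UMIs were summed per mouse and class, and genes with more UMIs in all than 10% of the number of nuclei were tested with edgeR 4.0.16 (TMM, quasi-likelihood F test, Benjamini-Hochberg FDR under 0.2) in R 4.3.3. Differences between classes were tested as an interaction with the mouse as a block. Bulk counts were filtered with filterByExpr and called at an FDR under 0.05. DESeq2 1.42.0 and edgeR's likelihood ratio test were alternatives. Shares used exact two-sided permutation tests (scipy 1.17.1), and doublet scores came from Scrublet in scanpy 1.11.5 and removed no nucleus. Standard errors and intervals on fold changes were derived from the quasi-likelihood F statistic. Its variance combines the spread of a gene between mice with that of other genes. No molecule count of a nucleus was corrected for free RNA.

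The members and gene lists were chosen with earlier results of these data known. Named genes were the 10 of lowest p in each direction where control and CUS mice did not overlap, the 2 members of each list with the largest fold change and a mean of at least 20 CPM, all genes of 4 lists (the markers of the rule, other corticothalamic genes, genes called before in both upper-layer classes, and genes the study names), and the 5 of smallest p in each interaction. Some of these genes are not reported here. Of simulated data with 200 changed genes in the 5232 tested, 17.0% to 17.8% of the calls were false at an FDR of 0.2 with the quasi-likelihood test and 21.8% to 22.6% with the likelihood ratio test.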

Additional observations from a re-analysis of the deposited data

Results flagged for a closer look

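Of 208 sets of 4 mice examined, 11 held a mouse whose gap to the others was large against the range of its group. Chance flags about 1 in 20 groups, which is close to this number. CUS replicate 1 accounted for 5 and control replicate 1 for 4.

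In CUS replicate 1, Ptgds stood at 271 CPM against 45.8 to 78.7 CPM in the other CUS mice. Shank1, a postsynaptic scaffold, was at 129 CPM against 70.1 to 75.1 CPM, Serinc2 at 62.8 CPM against 43.1 to 46.5 CPM, and Ctcf at 150 CPM against 116 to 119 CPM. The glucocorticoid receptor Nr3c1 was lowest in this mouse, at 155 CPM against 205 to 215 CPM. Without it the log2 fold change of Ptgds was 0.23 in place of 1.08.

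In control replicate 1, the median depth was 1959.5 UMIs against 2585 to 2679 in the other control mice, and the summed L4 markers were at 40.2 CPM against 24.9 to 26.9 CPM. Kif2a, a microtubule-depolymerizing kinesin, was at 239 CPM against 197 to 203 CPM, and Cacnb2, a calcium channel subunit, at 182 CPM against 227 to 235 CPM.

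In control replicate 2 the corticothalamic nuclei made up the highest share of excitatory nuclei, 24.1% against 20.3% to 20.8%, and control replicate 4 the highest Grik1, a kainate receptor subunit, at 120 CPM against 66.3 to 69.8 CPM.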

How the results depend on the processing

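The count of genes called in the corticothalamic nuclei was 0 with the quasi-likelihood test and moved to 10 with the likelihood ratio test, to 7 with no filter on low counts (Ttr, Ptgds and Vip, markers of other cell types, with Unc5c, Nkain3, Prr16 and Mical2) and to 1 (Mical2) with nuclei thinned to 1000 UMIs. With a term for the mt-Rnr1 split, chosen after the data were seen (2 control and 2 CUS mice above 400 CPM), the likelihood ratio test gave 93 and the quasi-likelihood test 0. The calls stayed at 0 to 0 when each mouse was left out. With the replicate block the count was 0, and bulk calls among the markers of the rule 1. Correlations of mice with the same number ran from -0.173 to 0.161 and of others from -0.299 to 0.274, so the numbers were not taken to pair the mice. The interaction with the other excitatory nuclei gave 0 to 1 calls with a mouse left out (1, Zfpm2, without CUS replicate 4). Zfpm2 is a marker of the rule, so its difference between classes is not read. That with L2/3 nuclei gave 0 to 3 (2 without control replicate 1, 1 without control replicate 3, 3 without CUS replicate 2) and 3 with the likelihood ratio test. Bulk calls among the markers ran from 1 to 2, Hs3st4 joining Garnl3 without CUS replicate 1. With a mouse left out, the difference in the share of kept nuclei ran from -0.136 to 0.279 points, in the share of excitatory nuclei from -3.25 to -1.29 points, and in median UMIs from -371 to -62.7. Of the values of named genes under the alternatives, 1364 kept their sign uncalled, 46 kept it and were called, and 46, of 17 genes, changed sign uncalled. Of these 4 moved by over 1 SE, among them Foxp2 (0.062 without CUS replicate 1), Alcam and Olfm3. With 1 mouse left out, 39 of 79 named genes moved by over 1.5 times, 4 of them (Nr3c2, Ptgds, Slit2 and Unc5c) among the 32 with a log2 fold change of at least 0.5 in size, a limit chosen after the data were seen. The cause was not tested.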
